A study of Mus musculus with 21 samples.

Results

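Gene expression in the epididymal fat of mice on a high-fat diet was compared with that of mice on a normal diet. The members are the 3 arrays titled for the high-fat diet (HFD) and the 3 titled for the normal diet (ND), 6 of the 21 arrays in the series, and the 16248 genes with a probe that carries a single gene symbol. The mice were male C57BL/6J, 4 weeks old on arrival, and ate their diets for 12 weeks after 1 week of acclimation. Fat supplied 10% of the energy in the ND diet and 40% in the HFD diet, and no agent was given to either group. The other 15 arrays came from 5 groups of 3 on the same high-fat diet with a supplement, and served here to estimate the spread and for a side-by-side description. The titles number the arrays (ND 6, 8 and 9, HFD 4, 6 and 7), and values below are given in that order. Each of these diet groups had 10 mice, and the labels do not say how those on the arrays were picked. Nothing else in the labels says that each array is a separate animal, so p-values measure the spread between these arrays.

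Epididymal fat is a visceral depot beside the testis. Its large lipid-filled adipocytes share the tissue with capillary endothelium, fibroblast-like progenitors and immune cells, among which macrophages are the most studied in obesity. During long high-fat feeding, macrophages are known to gather around dying adipocytes, take up their lipid and break it down in lysosomes, and a lipid-handling state marked by Trem2 has been described. Adipocytes themselves make fatty acids and triglyceride, release them by lipolysis, and secrete hormones such as leptin and adiponectin.

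Levels are log2 values of the arrays, 1 probe a gene, and each difference is HFD minus ND on the log2 scale with the standard error of a model fitted to all 21 arrays (limma, 14 residual degrees of freedom, two-sided). A gene is called when its p, adjusted over all 16248 genes by Benjamini-Hochberg, is under 0.05. Of markers that bear on the labelled tissue, Fabp4, the fatty acid binding protein of adipocytes, lay between 12.08 and 12.26 on the 6 arrays and did not pass (-0.101 ± 0.097, adjusted p = 0.536), and 22 genes of the epididymal duct had mean levels of 2.89 to 3.19; levels of different probes cannot be set against each other, so these values do not test the tissue. The arrays were not equally alike. ND array 9 correlated over the 16248 genes with its own group at a mean r of 0.9757 and with the HFD arrays at 0.9759, while for ND arrays 6 and 8 the same means were 0.9831 and 0.9813, and 0.9835 and 0.9798. The HFD arrays correlated with each other at 0.9925 to 0.9931. ND array 9 had the narrowest spread of values (SD over probes 1.823, against 1.921 to 2.001 on the other 5), so results that rest on it are marked below. Genes of chromosomes 7, 8, 9, X and Y were almost wholly outside the table used here, and those of chromosome 6 in part, so lists of genes are described by their measured members.

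Across all genes, 1403 of 16248 genes (8.63%) were called, 1063 higher (6.54%) and 340 lower (2.09%) in HFD. The rises were also larger. A difference of at least 1 log2 unit, or 2-fold, was reached by 189 genes called higher and 12 called lower, one of at least 1.5 by 48 and 1, and one of at least 2 by 11 and 0. The 3 HFD values lay all above or all below the 3 ND values in 4670 genes (28.7%), 15.7% of genes upwards and 13% downwards; 3 arrays against 3 cannot give an exact p below 0.1 for a single gene. Of the called genes, 331 were also called with each of the 6 arrays left out in turn, 304 of them higher and 27 lower. Without HFD array 6 the count fell to 368, the lowest of the 6, and without HFD array 4, HFD array 7 and ND array 8 it was 951, 826 and 987; without ND array 9 the calls stood at 856 higher and 506 lower.

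The direction went with the level of a gene. Among the 4062 brightest genes 703 were called higher and 71 lower, with a median difference of 0.138, and among the 4062 dimmest 5 and 109, with a median of -0.153. After quantile normalization the same counts were 439 and 206 in the brightest genes and 18 and 21 in the dimmest. The share of calls that were higher, 75.8%, was 68.2% after quantile normalization, 59.6% with array weights, and 91.5% after each array was centred on its median, which moved the median of all genes by 0.105. The median difference over all genes was -0.041. By kind of gene, 1040 of 13875 protein-coding genes were called higher and 252 lower, while of 1507 long non-coding RNA genes 11 were called higher and 48 lower.

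**Figure D1:**
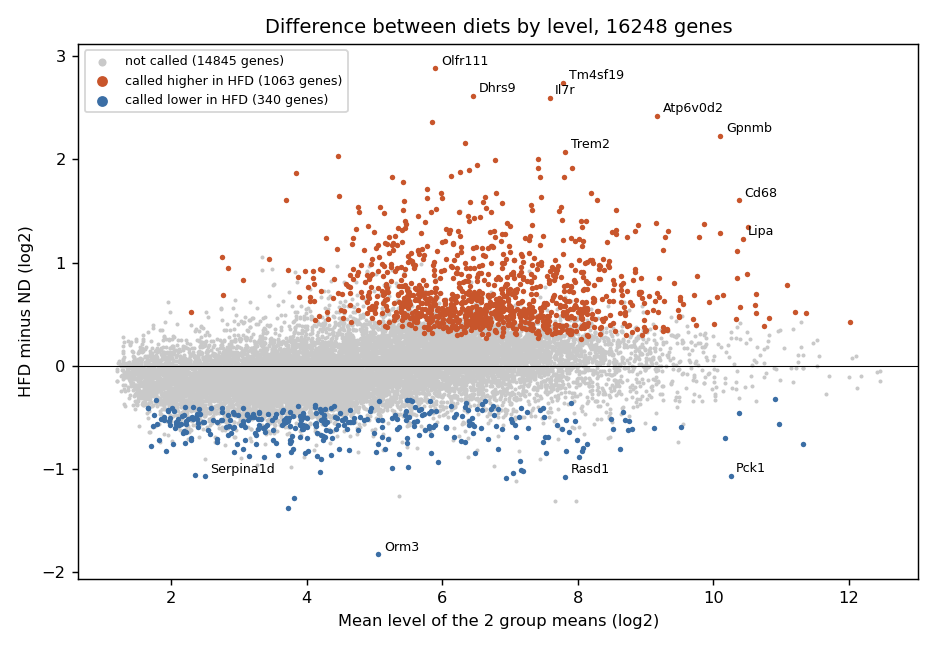
Difference in log2 between HFD and ND (vertical axis) against the mean of the 2 group means in log2 (horizontal axis), 1 point a gene, with called genes coloured. The 1063 genes called higher lie mostly at middle and high levels, and 205 of the 340 genes called lower lie in the dimmer part of the genes.

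**Figure D2:**
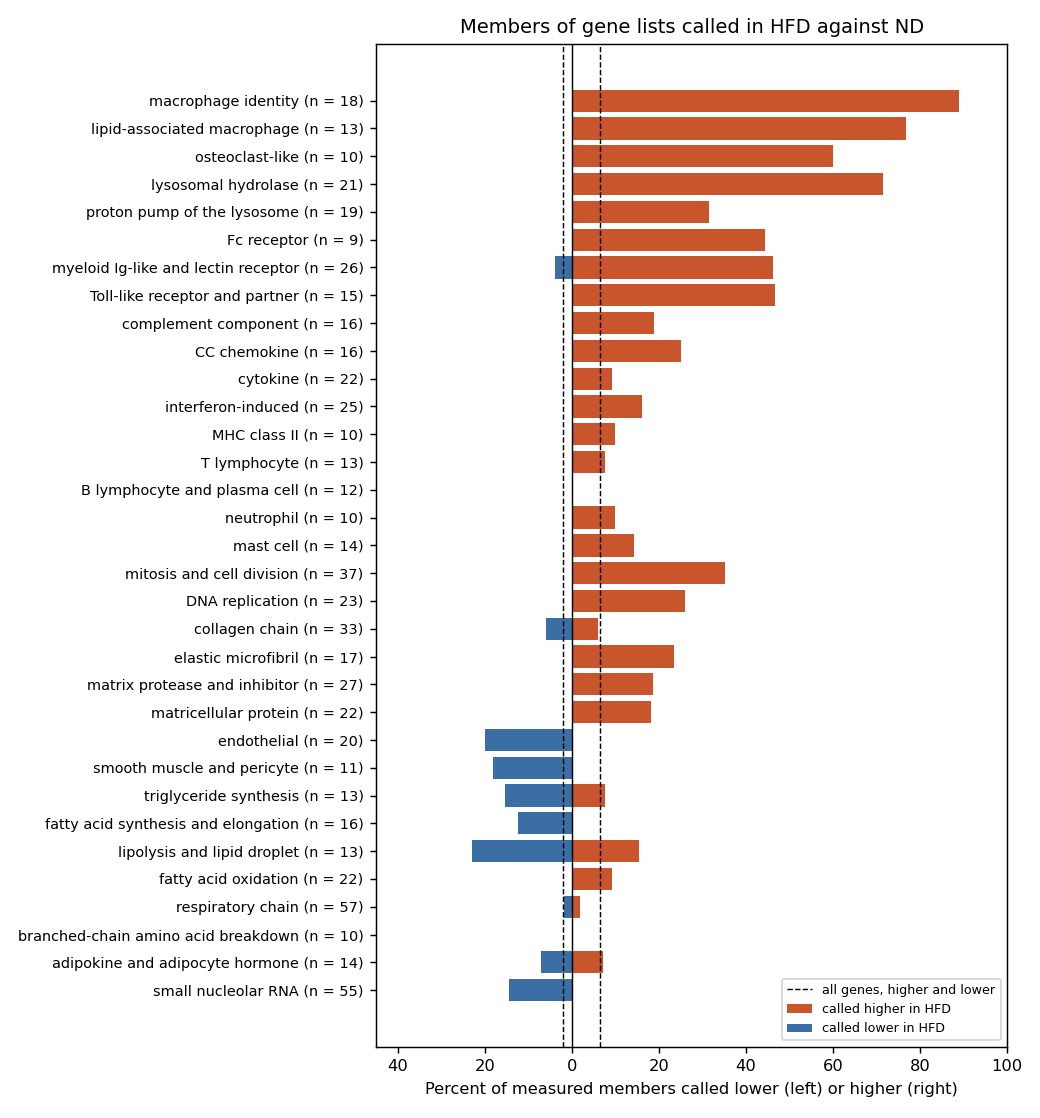
Percent of the measured members of 33 gene lists called higher (right, orange) or lower (left, blue) in HFD, with the share over all genes as dashed lines (6.54% higher, 2.09% lower). Macrophage, lysosome and cell division lists extend far to the right, and endothelial, smooth muscle and lipid synthesis lists reach to the left.

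Most of the measured genes in a list of general macrophage markers rose in HFD. Of 18 measured members of a list of 23, 16 were called higher, against 6.54% of all genes, and none lower. The median difference was 1.08 against -0.041 over all genes, and in all 18 the 3 HFD arrays lay above the 3 ND arrays, against 15.7% of all genes. Cd68, a glycoprotein of macrophage endosomes and lysosomes, stood at 9.22, 9.13 and 10.38 in ND and 11.18, 11.33 and 11.03 in HFD, 1.603 ± 0.288, adjusted p = 0.00371. Fcgr1, the high-affinity receptor for immunoglobulin G, stood at 5.69, 5.56 and 6.13 in ND and 7.56, 8.13 and 7.66 in HFD, 1.992 ± 0.313, adjusted p = 0.00309, a 3.98-fold rise. In both genes ND array 9 was the highest of its group and HFD array 6 the highest of all, with no overlap between the diets. Adgre1, which encodes the F4/80 antigen, stood at 7.5, 7.33 and 8.59 in ND and 9.17, 9.49 and 9.28 in HFD (1.507 ± 0.315, adjusted p = 0.00661). Siglec1, a sialic acid-binding receptor also called CD169, stood at 6.17, 6.06 and 6.11 in ND and 7.31, 7.59 and 7.35 in HFD (1.307 ± 0.221, adjusted p = 0.00327). Siglec1 was even within each diet, while Adgre1 was more than 1 log2 unit higher on ND array 9 than on the other ND arrays. Csf1r, the receptor for the growth factor on which macrophages depend, rose by 0.934 ± 0.192 (adjusted p = 0.00601), and Spi1, the gene of the transcription factor PU.1, by 1.209 ± 0.239 (adjusted p = 0.00494). The members that did not pass were Mertk, a receptor for the clearance of dying cells (0.191 ± 0.094, adjusted p = 0.207), and Aif1, an actin-binding protein also called Iba1 (0.437 ± 0.166, adjusted p = 0.103). The mean level of the 18 genes was 7.31, 7.25 and 7.86 in ND and 8.52, 8.73 and 8.51 in HFD, so ND array 9 lay between the other ND arrays and the HFD arrays. In whole tissue, more cells of a type and more RNA per cell cannot be told apart. Between 10 and 16 members were called with 1 array left out, the fewest without HFD array 6. A separate list of resident and alternatively activated macrophage genes moved less. Of its 12 measured members 2 were called higher, none lower, and 10 did not pass. Its median was 0.26, with differences from -0.74 to 0.79.

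PU.1 binds a purine-rich element whose core is GGAA, and the promoters of macrophage genes are known for such elements. In RefSeq promoters (250 bases before to 50 after the start, mouse build GRCm38.p6), the letters GAGGAA, searched on both strands, were present in 8 of 12 promoters of the list (66.7%, from 11 genes with an entry), in 34.0% of 1099 promoters of genes called higher, in 29.0% of 272 of genes called lower, and in 27.0% of all 15134. The same letters were in 44.4% of 18 endothelial promoters, 36.4% of 33 cell division promoters and 26.1% of 23 hydrolase promoters. A match of letters is a description of the sequence and not a binding site. The 150 bases before the start are shown for a pair of members that rose, with the match in capitals (GAGGAA, or TTCCTC where it lies on the other strand). The Fcgr1 stretch is chr3:96293970-96294119 (minus strand) and holds its match 55 bases before the start, and the C1qb stretch is chr4:136886201-136886350 (minus strand), with its match 30 bases before the start.
Fcgr1: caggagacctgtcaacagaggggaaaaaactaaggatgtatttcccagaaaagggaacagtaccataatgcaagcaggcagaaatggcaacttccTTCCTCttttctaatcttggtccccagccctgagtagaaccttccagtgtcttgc
C1qb: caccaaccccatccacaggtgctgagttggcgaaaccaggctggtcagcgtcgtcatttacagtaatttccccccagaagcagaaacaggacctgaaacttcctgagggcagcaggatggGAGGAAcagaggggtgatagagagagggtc
C1qb encodes a chain of complement C1q, which macrophages secrete, and stood at 9.4, 9.26 and 9.72 in ND and 10.67, 10.93 and 10.65 in HFD (1.289 ± 0.262, adjusted p = 0.0056). The other chains rose with it, C1qa by 0.961 ± 0.22 (adjusted p = 0.00998) and C1qc by 1.045 ± 0.246 (adjusted p = 0.0116). They were the only complement components of 16 measured that were called, and without HFD array 6 C1qb alone of the 3 was still called (C1qa adjusted p = 0.0584, C1qc 0.0657), and C1qc was at 0.05 without ND array 8.

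Most measured genes of lipid-associated macrophages also rose. Of 13 measured members of 17, 10 were called higher, beside 6.54% of all genes, and none lower (median 0.77). Trem2, the lipid-sensing receptor after which this state is known, stood at 6.32, 5.99 and 8.03 in ND and 8.86, 9.18 and 8.54 in HFD (2.076 ± 0.423, adjusted p = 0.00564). Gpnmb, a membrane glycoprotein of lipid-laden macrophages, stood at 8.45, 7.95 and 10.57 in ND and 11.2, 11.46 and 11 in HFD (2.231 ± 0.436, adjusted p = 0.00487). For both genes ND array 9 was far above the other ND arrays and below every HFD array, and in a fit of the 6 arrays alone the adjusted p of Gpnmb was 0.0559. Nceh1, an enzyme that hydrolyses stored cholesterol ester, stood at 5.58, 5.09 and 6.78 in ND and 7.38, 7.62 and 7.21 in HFD (1.588 ± 0.341, adjusted p = 0.00718). Lipa, the acid lipase that frees fatty acids from lipid in lysosomes, stood at 9.61, 9.52 and 10.32 in ND and 11.04, 11.18 and 10.93 in HFD (1.233 ± 0.228, adjusted p = 0.00395). Plin2, a coat protein of lipid droplets, stood at 9.83, 9.74 and 10.18 in ND and 10.77, 10.85 and 10.68 in HFD (0.852 ± 0.155, adjusted p = 0.00373). These 3 lipid-handling genes kept the diets apart on every array. Lgals3, a galectin made by phagocytes, rose by 0.965 ± 0.178 (adjusted p = 0.00394), and Abcg1, an exporter of cholesterol, by 0.769 ± 0.162 (adjusted p = 0.00673). Cd36, a fatty acid receptor that adipocytes also carry, lay between 11.9 and 12.12 on all 6 arrays (0.077 ± 0.09, adjusted p = 0.618).

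Genes best known from osteoclasts, the bone-resorbing relatives of macrophages, were called higher in 6 of 10 measured members and lower in none, with a median of 1.02. Tm4sf19, a membrane protein of the transmembrane 4 superfamily, stood at 5.84, 5.64 and 7.79 in ND and 8.95, 9.55 and 8.99 in HFD (2.741 ± 0.445, adjusted p = 0.00309), Atp6v0d2, a proton pump subunit, at 7.55, 7.15 and 9.2 in ND and 10.34, 10.57 and 10.26 in HFD (2.425 ± 0.423, adjusted p = 0.00349). Ctsk, the collagen-degrading protease cathepsin K, stood at 6.08, 5.86 and 7.29 in ND and 8.25, 8.78 and 8.23 in HFD (2.007 ± 0.371, adjusted p = 0.00394). The 3 genes were lowest on ND arrays 6 and 8, intermediate on ND array 9 and highest on the HFD arrays. Dcstamp, needed for the fusion of such cells, rose by 1.172 ± 0.232 (adjusted p = 0.00494), and Mitf, a transcription factor of osteoclasts and of lysosome genes, by 0.976 ± 0.2 (adjusted p = 0.00588). Tnfrsf11a, the receptor RANK, passed with all arrays (1.072 ± 0.285, adjusted p = 0.0236) but not without HFD array 6, ND array 6 or ND array 8 (adjusted p = 0.126, 0.0738 and 0.102). Nfatc1, the master regulator of osteoclasts, did not pass (0.101 ± 0.096, adjusted p = 0.531), nor did Ocstamp (0.093 ± 0.101, adjusted p = 0.591), a partner of Dcstamp.

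Many enzymes of the lysosome rose. Of 21 measured hydrolases of 38, 15 were called higher, beside 6.54% of all genes, and 6 did not pass. All 21 differences were positive, and the median was 0.65. Ctsk, already given with the osteoclast genes, is among the 15. Lgmn, the asparagine-specific protease legumain, stood at 8.39, 8.34 and 9.26 in ND and 9.84, 10.08 and 9.81 in HFD (1.247 ± 0.218, adjusted p = 0.00351). Ctsa, a carboxypeptidase that also protects other lysosomal enzymes, stood at 8.65, 8.76 and 8.9 in ND and 9.61, 9.73 and 9.52 in HFD (0.849 ± 0.151, adjusted p = 0.00362). Acp2, lysosomal acid phosphatase, stood at 7.56, 7.49 and 7.5 in ND and 8.3, 8.32 and 8.24 in HFD (0.769 ± 0.128, adjusted p = 0.00309) with an SD of 0.04 in either diet (n = 3). Cathepsin L (Ctsl) rose by 0.683 ± 0.134 (adjusted p = 0.00494), glucuronidase (Gusb) by 0.975 ± 0.204 (adjusted p = 0.00673) and galactosylceramidase (Galc) by 0.855 ± 0.185 (adjusted p = 0.00749). Without HFD array 6 the count of called hydrolases was 6, with Gusb (adjusted p = 0.0523) and Galc (0.0571) among those lost, and without ND array 8 it was 9. Of 19 measured subunits and partners of the proton pump that acidifies the lysosome, 6 were called higher, among them Atp6v0d2, already given above. Atp6v1a, the catalytic subunit, stood at 7.87, 7.72 and 8.24 in ND and 8.91, 9.18 and 8.79 in HFD (1.012 ± 0.193, adjusted p = 0.00445), while Atp6v0a1 rose by 0.801 ± 0.168 (adjusted p = 0.00674) and Atp6v1d by 0.703 ± 0.129 (adjusted p = 0.00394). The median over the 19 was 0.04, so the rises belonged to some subunits and not to the list as a whole. Outside the lists, Npc1, the exporter of cholesterol from lysosomes, stood at 7.08, 7.19 and 7.13 in ND and 7.99, 8.13 and 8.02 in HFD (0.915 ± 0.151, adjusted p = 0.00309). It was chosen after its values were seen, and its other, dimmer probe differed by only 0.18.

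Transcription factors of lysosome genes bind an E box, CACGTG. Its letters were present in 5 of 23 promoters of the hydrolases (21.7%, from 20 genes), in 11.2% of promoters of genes called higher, 6.62% of those called lower and 8.29% of all. The stretches before the start of Ctsa (chr2:164833623-164833772 (plus strand)) and Lgmn (chr12:102439093-102439242 (minus strand)) are shown with the E box in capitals, 12 and 49 bases before the start. Ctsa has a further match 5 bases after its start, outside the stretch.
Ctsa: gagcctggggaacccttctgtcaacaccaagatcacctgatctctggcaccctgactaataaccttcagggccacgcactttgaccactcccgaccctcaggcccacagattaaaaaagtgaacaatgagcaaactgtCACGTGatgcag
Lgmn: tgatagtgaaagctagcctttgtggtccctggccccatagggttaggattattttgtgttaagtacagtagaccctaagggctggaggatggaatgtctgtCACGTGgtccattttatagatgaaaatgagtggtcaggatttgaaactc
Tfeb, which encodes a factor of that class, did not pass, at 4.44, 4.56 and 4.85 in ND and 4.9, 5.04 and 4.66 in HFD (0.25 ± 0.169, adjusted p = 0.369).

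**Figure D3:**
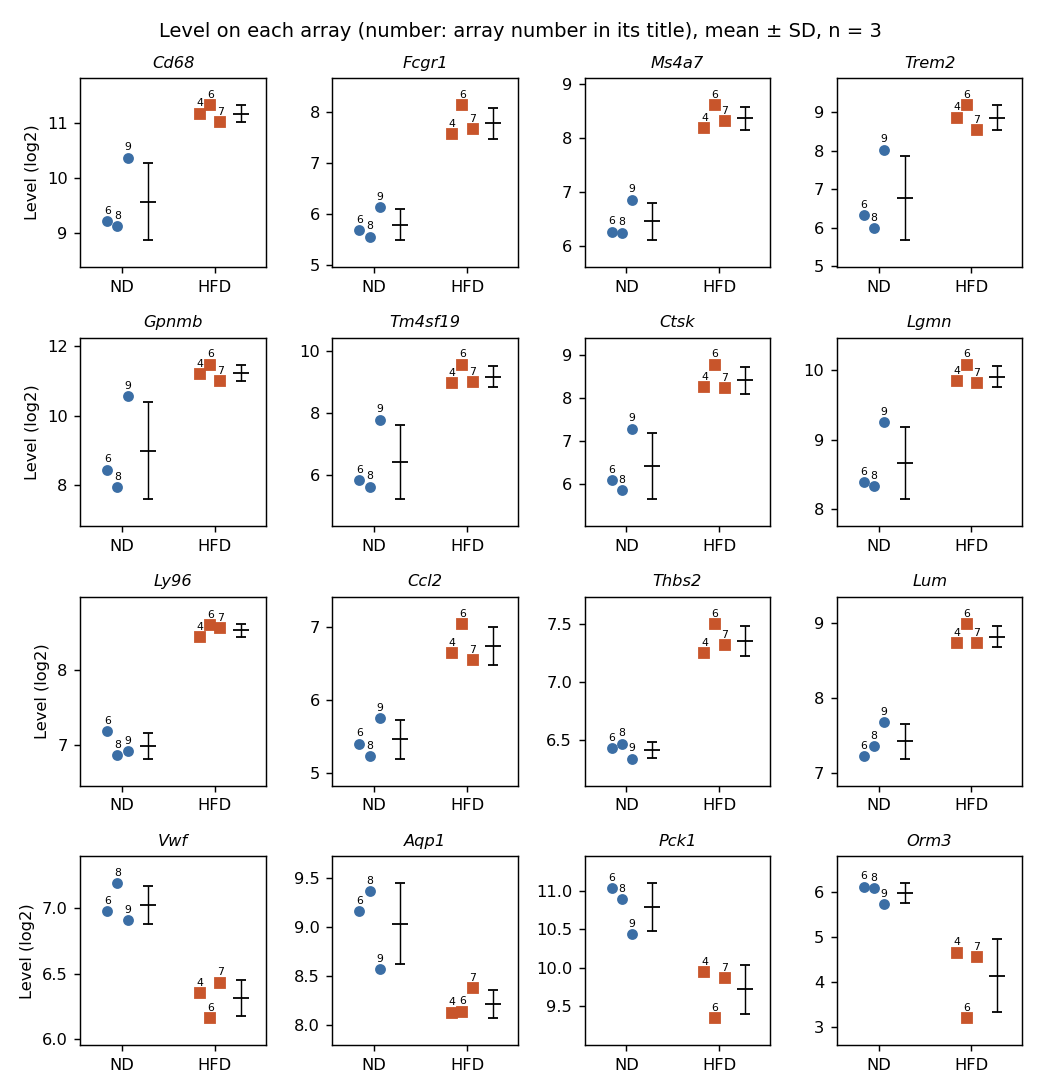
Level in log2 (vertical axis, own scale for each gene) on each ND (blue circles) and HFD (orange squares) array for 16 genes, numbered as in the titles, with the mean and SD of 3 arrays in black. In all 16 genes the diets do not overlap, and ND array 9 is the ND array nearest to HFD in Trem2, Gpnmb, Tm4sf19, Ctsk and Cd68.

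Receptors of the innate immune system rose in part, beside 6.54% of all genes called higher. Among 9 measured Fc receptor genes 4 were called higher: besides Fcgr1, these were Fcgr3, which was lost without HFD array 6 or ND array 8 (adjusted p = 0.0789 and 0.0562), Fcgr4, and Fcer1g, the shared signalling chain. Fcer1g stood at 9.1, 8.92 and 9.47 in ND and 10.37, 10.52 and 10.36 in HFD (1.252 ± 0.21, adjusted p = 0.00327). Fcgr2b, the inhibitory receptor, did not pass (0.279 ± 0.142, adjusted p = 0.224). Of 15 Toll-like receptors and partners 7 were called higher. Ly96 (MD-2), which holds the lipid part of endotoxin for Tlr4, stood at 7.19, 6.87 and 6.92 in ND and 8.44, 8.6 and 8.56 in HFD (1.541 ± 0.222, adjusted p = 0.00309). Tlr1, which senses bacterial lipopeptides, stood at 5.27, 4.6 and 5.58 in ND and 6.53, 7.02 and 6.91 in HFD (1.672 ± 0.335, adjusted p = 0.0052), and Tlr6, of the same class, rose by 1.203 ± 0.191 (adjusted p = 0.00309). Tlr4 itself rose by 0.449 ± 0.122 (adjusted p = 0.0259), and its call was lost without HFD array 6, HFD array 7 or ND array 6 (adjusted p = 0.101, 0.08 and 0.0739). Of the 15, 3 were called without HFD array 7, 4 without HFD array 4, HFD array 6 or ND array 6, and 5 without ND array 8. Cd180, a relative of the Toll-like receptors, rose by 1.918 ± 0.353 (adjusted p = 0.00394), and its partner Ly86 by 1.161 ± 0.224 (adjusted p = 0.00476).

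Of 26 immunoglobulin-like and C-type lectin receptors of myeloid cells, 12 were called higher and 1 lower, with a median of 0.48. Over all genes 6.54% were called higher and 2.09% lower. Trem2, already given with the lipid-associated genes, is among the 12. Clec12a, an inhibitory lectin, stood at 6.4, 6.61 and 7.65 in ND and 8.54, 9.01 and 8.59 in HFD (1.828 ± 0.345, adjusted p = 0.00441). Cd300ld, an activating receptor, stood at 7.16, 7.0 and 7.93 in ND and 8.95, 9.24 and 8.93 in HFD (1.678 ± 0.309, adjusted p = 0.00394). Lilrb4a, an inhibitory receptor, stood at 9.59, 9.34 and 10.62 in ND and 11.09, 11.41 and 11.07 in HFD (1.341 ± 0.276, adjusted p = 0.00604), and Clec4n, the lectin Dectin-2, fell by 0.522 ± 0.154 (adjusted p = 0.0397). The Clec4n call was lost without HFD array 4, HFD array 6, ND array 6 and ND array 9. The count of members called higher was 7 without HFD array 6 and 9 to 12 without each other array. Several of these genes lie in clusters of closely related copies, and how the probes split between copies is not known here. The Ms4a family of membrane proteins had 6 of 20 members called higher, led by Ms4a7 at 6.27, 6.25 and 6.86 in ND and 8.19, 8.61 and 8.32 in HFD (1.916 ± 0.315, adjusted p = 0.00309) and Ms4a6d at 5.07, 5.23 and 5.34 in ND and 6.89, 7.14 and 7.11 in HFD (1.836 ± 0.278, adjusted p = 0.00309). Ms4a7 is also in the macrophage list, and the count of Ms4a genes called higher was 3 without HFD array 6. Of 9 receptors of the SLAM family, a list added after values were seen, 6 were called higher; Slamf9 stood at 6.33, 6.48 and 6.54 in ND and 7.33, 7.7 and 7.62 in HFD (1.102 ± 0.223, adjusted p = 0.0054) and Cd48 at 5.73, 5.99 and 6.08 in ND and 6.95, 7.06 and 6.92 in HFD (1.045 ± 0.197, adjusted p = 0.00441). This count, too, was 3 without HFD array 6. Of 20 Rgs genes, brakes on G protein signalling, 4 were called higher: Rgs1 stood at 4.76, 4.45 and 6.55 in ND and 7.45, 7.55 and 7.23 in HFD (2.156 ± 0.425, adjusted p = 0.00494) and Rgs2 at 6.66, 6.76 and 7.16 in ND and 8.09, 8.37 and 7.89 in HFD (1.261 ± 0.241, adjusted p = 0.00454), with Rgs19 and Rgs18 lost without HFD array 6 (adjusted p = 0.0516 and 0.0529). Genes of white-cell adhesion and signalling, also chosen after their values were seen, rose too: Itgb2, the shared chain of leukocyte integrins, by 1.379 ± 0.292 (adjusted p = 0.00704), the actin bundler Lcp1 by 1.305 ± 0.233 (adjusted p = 0.00371), and the phosphatase Inpp5d, also called SHIP1, by 1.151 ± 0.186 (adjusted p = 0.00309).

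Some secreted signals rose, beside 6.54% of all genes called higher. Of 16 CC chemokines 4 were called higher. Ccl2, the attractant of monocytes, stood at 5.4, 5.23 and 5.75 in ND and 6.64, 7.04 and 6.55 in HFD (1.283 ± 0.247, adjusted p = 0.00472). Ccl9 stood at 9.84, 9.86 and 10.46 in ND and 10.93, 11.06 and 10.83 in HFD (0.89 ± 0.17, adjusted p = 0.00454). Both held apart on every array. Ccl3 (1.298 ± 0.366, adjusted p = 0.0316) and Ccl6 (0.714 ± 0.201, adjusted p = 0.0312) were lost without HFD array 4, HFD array 6, HFD array 7 or ND array 8 (Ccl3 adjusted p = 0.0531, 0.117, 0.0908 and 0.108), and Ccl6 also without ND array 6. Of 14 CXC and CX3C chemokines Pf4, the platelet factor also made by macrophages, rose by 0.848 ± 0.141 (adjusted p = 0.00309), Cxcl16, a scavenger receptor and chemokine, by 0.723 ± 0.197 (adjusted p = 0.0268), and Cxcl11, which attracts T cells, fell by 0.7 ± 0.208 (adjusted p = 0.0401); Pf4 was the 1 of the 3 called with each array left out in turn. Of 22 cytokines and antagonists 2 were called higher, beside 6.54% of all genes, and the list had a median of -0.03 with 8 positive differences. Tnf, the inflammatory cytokine, stood at 4.82, 4.68 and 4.84 in ND and 5.5, 5.75 and 5.46 in HFD (0.792 ± 0.213, adjusted p = 0.0247), and its call was lost without HFD array 4, HFD array 6 or ND array 8 (adjusted p = 0.0505, 0.124 and 0.0712). Il1rn, the antagonist of interleukin-1, stood at 4.28, 4.25 and 4.87 in ND and 5.46, 6.14 and 5.31 in HFD (1.169 ± 0.265, adjusted p = 0.00954) and was lost without HFD array 6 (adjusted p = 0.0789). Among 25 interferon-induced genes 4 were called higher: Ifi204, a DNA sensor, stood at 4.57, 5.28 and 4.9 in ND and 6.17, 6.42 and 6.53 in HFD (1.455 ± 0.202, adjusted p = 0.00275) and Oasl2, of the oligoadenylate synthetase family, at 5.87, 5.88 and 5.74 in ND and 6.53, 6.58 and 6.41 in HFD (0.677 ± 0.12, adjusted p = 0.00358). These 2 were the ones called without HFD array 6 or ND array 9. Of 10 class II antigen presentation genes 1 was called higher, beside 6.54% of all genes. This was H2-Aa, which rose by 0.477 ± 0.134 (adjusted p = 0.0318) and was lost without HFD array 4, 6 or 7 or ND array 8 or 9.

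In each list of markers of other immune cells 0 to 2 members were called, beside 8.63% of all genes. Il7r, the interleukin-7 receptor, was the 1 called member of 13 T lymphocyte genes, at 5.5, 5.49 and 7.87 in ND and 8.84, 9.06 and 8.75 in HFD (2.595 ± 0.47, adjusted p = 0.00373). The mean level of the 13 genes was 4.24, 4.27 and 4.44 in ND and 4.42, 4.39 and 4.38 in HFD. None of 5 natural killer, 12 B lymphocyte, 6 dendritic cell and 3 eosinophil genes was called by limma, and at an unadjusted p under 0.05 there were 0, 2, 1 and 1. Of 14 mast cell genes 2 were called higher. Cpa3, the carboxypeptidase of mast cell granules, stood at 4.5, 5.22 and 4.3 in ND and 5.72, 7.9 and 7.5 in HFD (2.365 ± 0.616, adjusted p = 0.0211). Mcpt4, a chymase, stood at 3.04, 2.92 and 2.74 in ND and 3.27, 5.29 and 4.94 in HFD (1.603 ± 0.426, adjusted p = 0.0235). HFD arrays 6 and 7 stood far above HFD array 4 in both, and neither gene was called without HFD array 6 (adjusted p = 0.127 and 0.147), HFD array 7 (0.0834 and 0.1) or ND array 9 (0.0597 and 0.0588). Without HFD array 4, 4 of the 14 were called, and Mcpt4 was not called without ND array 8 (0.0553). Csf3r, the receptor for a neutrophil growth factor, was the 1 called of 10 neutrophil genes, at 5.12, 4.94 and 4.96 in ND and 5.84, 5.58 and 5.68 in HFD (0.692 ± 0.15, adjusted p = 0.0074).

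Of 37 measured genes of cell division 13 were called higher, beside 6.54% of all genes, and 24 did not pass. Without HFD array 6, 1 was called. All 37 had a positive difference, 29 lay higher in HFD with no overlap between the diets, against 15.7% of all genes, and the median was 0.63. Their mean level was 4.52, 4.51 and 4.53 in ND and 4.97, 5.38 and 5.1 in HFD. Foxm1, the transcription factor of mitotic genes, stood at 3.83, 3.89 and 3.69 in ND and 4.45, 4.39 and 4.46 in HFD (0.63 ± 0.126, adjusted p = 0.00521). Cdk1, the kinase that starts mitosis, stood at 4.74, 4.37 and 4.45 in ND and 5.3, 5.75 and 5.18 in HFD (0.893 ± 0.265, adjusted p = 0.0402). Kif11, a motor of the spindle, stood at 4.46, 4.4 and 4.52 in ND and 5.12, 5.72 and 5.5 in HFD (0.988 ± 0.291, adjusted p = 0.0386). HFD array 6 was the highest in Cdk1 and Kif11 but the lowest of the HFD arrays in Foxm1, and Foxm1 was the 1 member still called without HFD array 6 (adjusted p = 0.185 for Cdk1 and 0.164 for Kif11). With the other arrays left out in turn the count was 11 without HFD array 4, 5 without HFD array 7, and 6, 4 and 5 without ND arrays 6, 8 and 9. Ect2, which directs the cleavage furrow, rose by 1.378 ± 0.292 (adjusted p = 0.00702), and Top2a, a topoisomerase of dividing cells, at 4.87, 4.64 and 4.74 in ND and 5.42, 5.84 and 5.34 in HFD, did not pass (0.783 ± 0.262, adjusted p = 0.0657).

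Of 23 replication genes 6 were called higher: Pcna, the sliding clamp, stood at 6.99, 7.1 and 7.37 in ND and 8.03, 8.48 and 8.03 in HFD (1.028 ± 0.219, adjusted p = 0.00716), Tk1, a thymidine kinase, rose by 0.974 ± 0.209 (adjusted p = 0.00718), and the helicase subunit Mcm6 by 0.877 ± 0.211 (adjusted p = 0.0131). None of the 6 was called without HFD array 6 (adjusted p = 0.0561, 0.0571 and 0.0894 for these 3), and 3 of the list were called without ND array 8. Of 25 replication-dependent histone genes 4 were called higher, among them H2bc12 at 3.83, 3.64 and 3.5 in ND and 4.81, 4.94 and 4.94 in HFD (1.242 ± 0.202, adjusted p = 0.00309), the 1 called without HFD array 6, and 2 were called without ND array 8; histone genes are near-identical copies, so the assignment to 1 copy is uncertain. Promoters of mitotic genes are known for a cell cycle element, TTTGAA (CHR). Its letters were in 23 of 33 promoters of the division list (69.7%, from 29 genes), in 15.2% of all promoters and in 11.8% of those of genes called higher, and CCAAT was in 22 of the 33 (66.7%) and in 36.9% of all. Here are the stretches before the start of Cdk1 (chr10:69352913-69353062 (minus strand)), with matches 71 and 15 bases before the start, and of Kif11 (chr19:37376232-37376381 (plus strand)), with its match 19 bases before it on the other strand (TTCAAA).
Cdk1: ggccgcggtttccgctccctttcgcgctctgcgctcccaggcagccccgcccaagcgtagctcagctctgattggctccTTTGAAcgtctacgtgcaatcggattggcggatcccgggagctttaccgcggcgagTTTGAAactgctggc
Kif11: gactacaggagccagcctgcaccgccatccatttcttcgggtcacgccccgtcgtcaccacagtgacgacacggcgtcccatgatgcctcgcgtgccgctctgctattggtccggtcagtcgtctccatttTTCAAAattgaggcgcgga

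The extracellular matrix changed gene by gene, and its counts stand beside 6.54% of all genes called higher and 17.3% of the 4062 brightest. Thbs2, thrombospondin 2, a matrix protein that restrains vessel growth, had the smallest adjusted p of the comparison, at 6.43, 6.47 and 6.34 in ND and 7.25, 7.5 and 7.32 in HFD (0.945 ± 0.096, adjusted p = 6.36e-05). Lum, the collagen-binding proteoglycan lumican, was the 1 called of 11 small leucine-rich proteoglycans, at 7.23, 7.36 and 7.68 in ND and 8.74, 8.99 and 8.74 in HFD (1.4 ± 0.257, adjusted p = 0.00394). Mmp14, a membrane-bound protease that cuts collagen, stood at 7.85, 7.69 and 7.94 in ND and 8.84, 8.87 and 8.71 in HFD (0.976 ± 0.16, adjusted p = 0.00309). In these 3 genes the diets were separated by more than the whole range within either one. Of 27 matrix proteases and inhibitors 5 were called higher, including Plau, the urokinase activator (0.925 ± 0.171, adjusted p = 0.00394), and Timp2, an inhibitor of such proteases (0.542 ± 0.136, adjusted p = 0.0169), which was lost without HFD array 6 or 7 or ND array 9 (adjusted p = 0.077, 0.0592 and 0.0623). With 1 array left out, whichever it was, 2 or 3 were called. Of 17 genes of elastic microfibrils 4 were called higher: Mfap5 stood at 8.67, 8.45 and 8.07 in ND and 9.14, 9.41 and 9.12 in HFD (0.826 ± 0.165, adjusted p = 0.00513), the crosslinking enzyme Loxl3 rose by 0.669 ± 0.13 (adjusted p = 0.00477) and Fbln2 by 0.453 ± 0.092 (adjusted p = 0.0056). Of 22 matricellular proteins 4 were called higher, Thbs2 among them, and Fn1, fibronectin, rose by 0.511 ± 0.116 (adjusted p = 0.00965). Thbs2 and Fn1 were the ones called without HFD array 6.

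Of 33 collagen chains 2 were called higher and 2 lower (6.54% and 2.09% over all genes). Col1a2, a chain of the main fibrillar collagen, stood at 8.75, 8.73 and 8.67 in ND and 9.36, 9.53 and 9.28 in HFD (0.673 ± 0.142, adjusted p = 0.00702) and Col1a1 rose by 0.664 ± 0.169 (adjusted p = 0.0184). Col15a1, a collagen of basement membranes, fell by 0.364 ± 0.099 (adjusted p = 0.0259), and Col23a1, a membrane collagen, fell by 0.443 ± 0.129 (adjusted p = 0.0367). None of the 4 was called without HFD array 6 (adjusted p = 0.0525, 0.112, 0.111 and 0.151), and after median centring the adjusted p of the 2 that fell was 0.159 and 0.0787. With the other arrays left out in turn 1 or 2 collagen chains were called higher and 0 to 4 lower. Of 16 fibroblast and progenitor genes Pdgfra, the receptor that marks progenitors, stood at 7.75, 7.67 and 7.54 in ND and 8.28, 8.35 and 8.23 in HFD (0.633 ± 0.141, adjusted p = 0.00851; 0.0529 without HFD array 6), and 2 others were called higher and 1 lower; none of the list was called higher without HFD array 6, and 1 without ND array 9.

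Of 20 measured endothelial genes 4 were called lower, none higher, and 16 did not pass. For this and the 2 vascular lists below, 2.09% of all genes and 1.75% of the 4062 brightest were called lower. All 20 had a negative difference, and 8 lay lower in HFD with no overlap between the diets, against 13% of all genes. The median was -0.36. It ranged from -0.46 to -0.25 over the processing alternatives, and was -0.49 without ND array 9. The 20 include Fabp4, given above as a marker of adipocytes. Vwf, von Willebrand factor, the clotting protein stored in endothelium, stood at 6.98, 7.19 and 6.91 in ND and 6.35, 6.16 and 6.43 in HFD (-0.713 ± 0.116, adjusted p = 0.00309). Aqp1, the water channel of capillaries, stood at 9.16, 9.36 and 8.57 in ND and 8.13, 8.14 and 8.38 in HFD (-0.811 ± 0.173, adjusted p = 0.00716). Egfl7, secreted by endothelium, stood at 7.19, 7.14 and 7.25 in ND and 6.63, 6.46 and 6.66 in HFD (-0.61 ± 0.136, adjusted p = 0.00855). Gpihbp1, which holds lipoprotein lipase on capillary walls, stood at 8.04, 8.09 and 7.81 in ND and 7.49, 7.26 and 7.46 in HFD (-0.578 ± 0.143, adjusted p = 0.0155). All 4 kept the diets apart, and HFD array 6 was the lowest array in each except Aqp1. Without HFD array 6 Vwf and Aqp1 were called and Egfl7 and Gpihbp1 were not (adjusted p = 0.0595 and 0.0963), Gpihbp1 was at 0.059 without ND array 8, and without ND array 9 or after quantile normalization 11 of the 20 were called lower. Pecam1, the adhesion molecule CD31, did not pass with all arrays, at 8.96, 9.14 and 9.02 in ND and 8.72, 8.58 and 8.76 in HFD (-0.353 ± 0.114, adjusted p = 0.058). The mean level of the 20 was 7.74, 7.78 and 7.41 in ND and 7.26, 7.08 and 7.4 in HFD, so ND array 9 lay at the level of HFD array 7. Of 20 vascular growth factors and receptors Notch4, a receptor of endothelium, fell by 0.434 ± 0.107 (adjusted p = 0.0153; 0.0789 without HFD array 6, 0.0567 without HFD array 7 and 0.0644 after median centring). Vegfa, the main vascular growth factor, did not pass, at 8.73, 8.72 and 8.7 in ND and 8.45, 8.0 and 8.2 in HFD (-0.504 ± 0.173, adjusted p = 0.0724). Of 11 smooth muscle and pericyte genes 2 were called lower: Myh11, smooth muscle myosin, stood at 7.83, 7.9 and 7.09 in ND and 6.58, 6.51 and 6.94 in HFD (-0.927 ± 0.208, adjusted p = 0.00897), and Notch3 fell by 0.396 ± 0.114 (adjusted p = 0.0347). Neither was called without HFD array 6 (adjusted p = 0.0595 and 0.13), 1 was called without HFD array 4 or 7 or ND array 6 or 8, and 4 of the 11 were called lower without ND array 9.

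Adipocyte lipid genes moved in both directions, and ND array 9 stood with HFD in many of them. Pck1, which makes the glycerol backbone of triglyceride, stood at 11.03, 10.89 and 10.44 in ND and 9.94, 9.35 and 9.87 in HFD (-1.066 ± 0.284, adjusted p = 0.0238), and was not called without HFD array 6, ND array 6 or ND array 8 (adjusted p = 0.133, 0.0683 and 0.0661). Gpat3, which starts triglyceride assembly, stood at 8.02, 8.11 and 6.99 in ND and 6.79, 6.47 and 6.79 in HFD (-1.02 ± 0.275, adjusted p = 0.0253), and Agpat4, of the next step, rose by 0.604 ± 0.123 (adjusted p = 0.00569). Fasn, fatty acid synthase, stood at 11.41, 11.43 and 10.9 in ND and 10.79, 10.63 and 10.61 in HFD (-0.57 ± 0.132, adjusted p = 0.0105). Acaca, acetyl-CoA carboxylase, stood at 8.88, 8.77 and 7.8 in ND and 7.68, 7.61 and 7.66 in HFD (-0.827 ± 0.207, adjusted p = 0.0162). In Gpat3 and Acaca ND array 9 lay about 1 log2 unit below the other ND arrays and just above the HFD arrays, which left gaps of 0.19 and 0.11 between the diets. Without HFD array 6 neither Gpat3, Fasn nor Acaca was called (adjusted p = 0.121, 0.0595 and 0.0718), nor without ND array 8 (0.101, 0.0531 and 0.0726). Gpat3 was called with no array other than ND array 9 left out, and Acaca was not called without ND array 6 (0.0692). Without ND array 9, 6 of 13 triglyceride synthesis genes and 4 of 16 fatty acid synthesis genes were called lower, against 2 and 2 with all arrays. With all arrays 2.09% of all genes were called lower.

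Of 13 genes of lipolysis and the lipid droplet 3 were called lower and 2 higher, Plin2 among the latter, beside 2.09% and 6.54% of all genes. G0s2, an inhibitor of triglyceride lipase, stood at 8.46, 8.38 and 8.56 in ND and 7.62, 7.53 and 7.6 in HFD (-0.883 ± 0.201, adjusted p = 0.00967; 0.0545 without HFD array 6), even within each diet. Cidea, a droplet protein, fell by 0.521 ± 0.136 (adjusted p = 0.0213) and Plin4, a droplet coat, fell by 0.701 ± 0.206 (adjusted p = 0.038), and neither was called without HFD array 6 (adjusted p = 0.0917 and 0.185) or HFD array 7 (0.0696 and 0.0825), nor Cidea without ND array 9 (0.0642) and Plin4 without ND arrays 6 or 8 (0.0952 and 0.115). Of 14 genes of cholesterol synthesis and uptake 3 were called higher, beside 6.54% of all genes, with a median of 0.34. Srebf2, their transcription factor, stood at 6.77, 6.59 and 6.58 in ND and 7.26, 7.47 and 7.12 in HFD (0.643 ± 0.129, adjusted p = 0.0052), and without HFD array 6 it was the 1 called, while 5 were called without ND array 6. Of 22 oxidation genes 2 were called higher, beside 6.54% of all genes. Cpt1a, the gate of mitochondrial fatty acid oxidation, was 1 of these 2, at 8.25, 8.15 and 8.1 in ND and 8.68, 8.66 and 8.56 in HFD (0.463 ± 0.1, adjusted p = 0.00732).

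None of 10 genes of branched-chain amino acid breakdown and none of 15 of the tricarboxylic acid cycle was called by limma, and none had an unadjusted p under 0.05. Without ND array 9, 6 of the 10 and 2 of the 15 were called lower. Mccc1, of leucine breakdown, stood at 7.96, 8.09 and 7.05 in ND and 7.39, 7.48 and 7.48 in HFD (-0.252 ± 0.179, adjusted p = 0.394; 0.00354 without ND array 9). Dbt, of the branched-chain ketoacid complex, stood at 7.97, 8.06 and 7.14 in ND and 7.48, 7.33 and 7.63 in HFD (-0.243 ± 0.178, adjusted p = 0.41; 0.017 without ND array 9). In both, ND array 9 was below every HFD array and ND arrays 6 and 8 above every one. The mean level of the 10 genes was 8.04, 8.0 and 7.21 in ND and 7.54, 7.47 and 7.66 in HFD. Of 57 respiratory chain genes 1 was called higher and 1 lower, beside 6.54% and 2.09% of all genes.

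**Figure D4:**
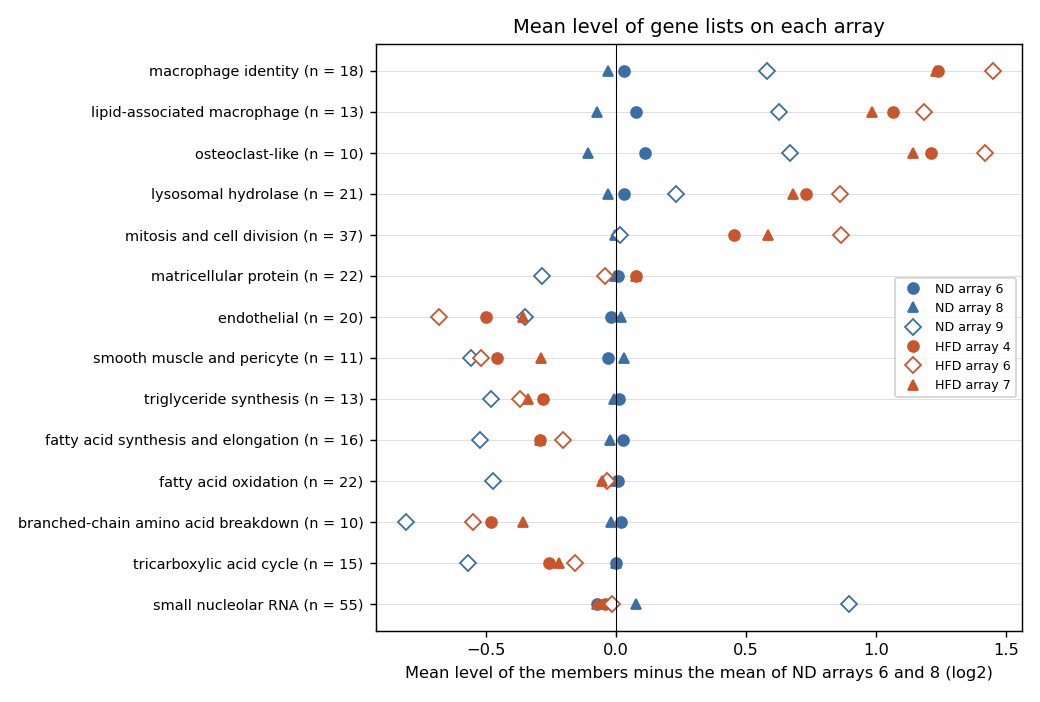
Mean level of the measured members of 14 gene lists on each array, in log2 relative to the mean of ND arrays 6 and 8 (vertical line), with ND arrays in blue and HFD arrays in orange. ND array 9 (open blue diamond) lies between the diets for macrophage lists, beyond the HFD arrays for branched-chain amino acid, tricarboxylic acid cycle and fatty acid lists, and alone for small nucleolar RNAs.

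Among 14 adipokines and adipocyte hormones 1 was called in each direction, beside 6.54% higher and 2.09% lower over all genes. Lep, leptin, stood at 11.2, 11.21 and 10.86 in ND and 11.48, 11.46 and 11.61 in HFD and did not pass (0.422 ± 0.182, adjusted p = 0.152), though the diets did not overlap, and Adipoq, adiponectin, at 9.8, 9.76 and 9.24 in ND and 9.33, 9.1 and 9.37 in HFD (-0.335 ± 0.174, adjusted p = 0.236), overlapped. Rbp4, the retinol carrier of plasma, stood at 9.16, 9.15 and 8.85 in ND and 8.49, 8.22 and 8.58 in HFD (-0.624 ± 0.156, adjusted p = 0.0164) and was not called without HFD array 6 or ND array 8 (adjusted p = 0.11 and 0.0578). Metrnl, a secreted factor, rose by 0.869 ± 0.235 (adjusted p = 0.0256), and was not called without HFD arrays 4 or 6 or ND arrays 6 or 8 (adjusted p = 0.0569, 0.126, 0.0871 and 0.0828). Dhrs9, a retinol dehydrogenase, was among the largest rises, at 4.75, 4.39 and 6.32 in ND and 7.66, 8.19 and 7.46 in HFD (2.619 ± 0.451, adjusted p = 0.00327), and was the 1 called higher of 20 retinoid genes. In a list of 23 adipocyte transcription regulators and related genes 2 were called lower, Acvr1c and Cidea. These are a receptor and a droplet protein, not transcription factors. Acvr1c, the receptor ALK7, stood at 8.33, 8.27 and 7.28 in ND and 7.06, 7.04 and 7.24 in HFD (-0.845 ± 0.232, adjusted p = 0.0272), with ND array 9 beside the HFD arrays. Acvr1c was called with no array other than ND array 9 left out. Pparg, the master regulator of adipocytes, did not pass (-0.307 ± 0.12, adjusted p = 0.114; 0.00513 without ND array 9), at 9.09, 9.17 and 8.62 in ND and 8.72, 8.52 and 8.72 in HFD.

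Of 22 genes of insulin signalling and glucose use 4 were called higher and 1 lower. The shares were 6.54% and 2.09% over all genes, and 17.3% and 1.75% among the 4062 brightest. Hk3, a hexokinase of white blood cells, stood at 4.9, 4.84 and 5.85 in ND and 6.28, 6.51 and 6.01 in HFD (1.073 ± 0.247, adjusted p = 0.0104). Ptpn1, a phosphatase that turns off the insulin receptor, stood at 5.34, 5.4 and 5.35 in ND and 5.91, 5.86 and 5.71 in HFD (0.459 ± 0.123, adjusted p = 0.0239). Slc2a4, the insulin-dependent glucose transporter, stood at 7.32, 7.34 and 6.57 in ND and 6.89, 6.07 and 6.79 in HFD and did not pass (-0.493 ± 0.215, adjusted p = 0.156; 0.0292 without ND array 9). None of the 5 called genes was called without HFD array 6, with an adjusted p of 0.0697 for Hk3 and 0.0994 for Ptpn1, and 1 to 3 of the list were called higher without each other array. Of 265 solute carriers 23 were called higher and 5 lower, near the shares over all genes (6.54% and 2.09%). Without HFD array 6 the counts were 11 and 1, 2 and 1 were called lower without HFD arrays 4 and 7, 3 without ND array 8, and 11 without ND array 9. Slc6a6, the taurine transporter, stood at 8.16, 8.05 and 8.4 in ND and 9.35, 9.81 and 9.54 in HFD (1.364 ± 0.223, adjusted p = 0.00309). Slc11a1, a metal transporter of phagosomes, stood at 7.69, 7.53 and 8.51 in ND and 9.25, 9.35 and 9.09 in HFD (1.318 ± 0.259, adjusted p = 0.00494).

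The largest fall was in an acute-phase gene. Orm3, an orosomucoid, stood at 6.12, 6.08 and 5.73 in ND and 4.66, 3.21 and 4.56 in HFD (-1.83 ± 0.368, adjusted p = 0.00525), 3.56-fold lower in HFD, and Serpina1d, an alpha-1-antitrypsin, at 3.27, 3.27 and 2.55 in ND and 2.11, 1.94 and 1.82 in HFD (-1.074 ± 0.208, adjusted p = 0.00477). HFD array 6 was the lowest by more than 1 log2 unit in Orm3. Both genes have closely similar neighbours, so which copy the probe reads is uncertain, and Serpina1d lay among the dim genes. No other of the 32 measured acute-phase and plasma protein genes was called with all arrays, and 7 were called lower without ND array 9. Rasd1, a glucocorticoid-induced small G protein, stood at 8.52, 8.55 and 7.99 in ND and 6.98, 7.39 and 7.46 in HFD (-1.075 ± 0.241, adjusted p = 0.00896). Inhba, a chain of activin, stood at 4.49, 4.48 and 4.79 in ND and 3.65, 3.89 and 3.59 in HFD (-0.876 ± 0.176, adjusted p = 0.00532).

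Stress and early response genes gave a few rises, beside 6.54% of all genes called higher and 17.3% of the 4062 brightest. Egr2, an early response factor, stood at 5.77, 5.02 and 6.66 in ND and 7.41, 7.66 and 7.3 in HFD (1.634 ± 0.328, adjusted p = 0.00523). Fos, of the same class, stood at 5.63, 5.14 and 6.74 in ND and 7.36, 7.43 and 7.06 in HFD (1.445 ± 0.318, adjusted p = 0.00811; 0.0517 without HFD array 6), 2 of 3 called of 19. Atf3, a stress factor, stood at 6.97, 6.6 and 8.49 in ND and 8.86, 8.98 and 8.42 in HFD (1.401 ± 0.369, adjusted p = 0.0226) and its diets overlapped, since ND array 9 lay above HFD array 7; its call was lost without HFD arrays 4 or 6 or ND arrays 6 or 8. Without ND array 9, 5 of the 19 were called. Nfe2l2, the master of antioxidant genes, stood at 7.65, 7.58 and 7.36 in ND and 8.15, 8.1 and 8.08 in HFD (0.579 ± 0.129, adjusted p = 0.0086), and thioredoxin (Txn1) and its reductase (Txnrd1) rose by 0.465 ± 0.111 (adjusted p = 0.0125) and 0.496 ± 0.119, adjusted p = 0.0131. Of 20 antioxidant genes these were the 3 called higher, and Gsta3, a glutathione transferase, fell by 0.979 ± 0.254 (adjusted p = 0.0209; 0.063, 0.0746 and 0.0854 without HFD array 4, ND array 6 and ND array 8). Without HFD array 6 Nfe2l2 alone of the 4 was called (adjusted p = 0.0632, 0.0733 and 0.0841 for Txn1, Txnrd1 and Gsta3). Of 24 genes of the unfolded protein response 3 were called higher, and 12 after median centring; without HFD arrays 4, 6 and 7 and ND array 8 the count was 1, 0, 1 and 1.

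Of 55 small nucleolar RNAs, which guide the modification of ribosomal RNA, 8 were called lower and none higher, beside 2.09% and 6.54% of all genes. Snord104 stood at 8.4, 8.57 and 8.48 in ND and 7.77, 7.7 and 7.59 in HFD (-0.796 ± 0.134, adjusted p = 0.00327). Snora61 stood at 5.76, 6.21 and 6.0 in ND and 5.08, 5.47 and 5.42 in HFD (-0.669 ± 0.131, adjusted p = 0.00488), and these 2 were called with each array left out. Snora73b stood at 6.79, 7.19 and 8.46 in ND and 6.5, 6.53 and 6.15 in HFD (-1.085 ± 0.312, adjusted p = 0.0349) and was not called without ND array 9 (adjusted p = 0.164) or without HFD array 4, 6 or 7 (0.0647, 0.0866 and 0.123). The mean level of the 55 was 6.96, 7.11 and 7.93 in ND and 6.99, 7.02 and 6.96 in HFD, so ND array 9 stood above all others. The counts called lower without 1 array ran from 2 to 13, with 2 without HFD array 6 and 13 without ND array 6. They were 4, 3 and 3 without HFD arrays 4 and 7 and ND array 9. Without ND array 9, 2 were also called higher, and the median was -0.07 in place of -0.29.

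Olfactory receptors, a large family that is dim outside the nose, had 3 of 707 called higher and 30 lower, with a median of -0.17. Over all genes 2.09% were called lower, and among the 4062 dimmest 2.68%, with a median of -0.153, close to that of the receptors. The count called lower was 8, 5 and 10 without HFD arrays 4, 6 and 7, and 35, 21 and 12 without ND arrays 6, 8 and 9. After quantile normalization 3 were called lower, and of the genes kept when the dim ones were left out none was. Their mean level was 2.32 to 2.61 on the 6 arrays. Olfr111 stood apart, with the largest rise of the comparison, at 3.74, 3.56 and 6.08 in ND and 6.91, 7.64 and 7.48 in HFD (2.883 ± 0.548, adjusted p = 0.00445), and its neighbour Olfr110 at 2.38, 2.73 and 3.64 in ND and 4.44, 5.02 and 4.89 in HFD (1.867 ± 0.361, adjusted p = 0.00477). The 2 receptors were lowest on ND arrays 6 and 8, intermediate on ND array 9 and highest in HFD. Trem2, Egr2 and Fos had the same order, and the macrophage gene Siglec1 did not. Olfr111 and Olfr110 are related neighbours, and whether their probes share signal was not tested.

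Genes of neighbouring tissues are given by their counts, beside 8.63% called over all genes and 2.81% among the 4062 dimmest of them. Of 22 epididymal duct genes Defb20 was called lower, at 3.68, 3.03 and 3.33 in ND and 2.77, 2.57 and 2.44 in HFD (-0.756 ± 0.185, adjusted p = 0.0144; 0.0648, 0.0654 and 0.0617 without HFD array 6, HFD array 7 and ND array 6). Of 16 sperm and testis genes Odf1, of the sperm tail, was called higher, at 10.93, 10.89 and 11.03 in ND and 11.5, 11.5 and 11.42 in HFD (0.523 ± 0.115, adjusted p = 0.00811). Its other probe gave -0.19, and the mean of both probes did not pass (adjusted p = 0.317). None of 12 mesothelial, 11 skeletal muscle and 3 red cell genes was called by limma, or had an unadjusted p under 0.05. Of 9 nerve and glia genes Pmp22, a myelin protein, rose by 0.629 ± 0.13 (adjusted p = 0.0062).

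How far the calls carried to an array that had no part in them was described by leaving each array out, calling genes on the rest and asking on which side of the midpoint of the other group means its values lay. HFD arrays 4, 6 and 7 lay on the HFD side in 91.2, 96.5 and 93.8% of the genes called without them. ND arrays 6 and 8 lay on the ND side in 66.7 and 78.1%, and ND array 9 in 52.6%. On a scale with the ND mean at 0 and the HFD mean at 1, the median position of ND array 9 was 0.48 and that of HFD array 6 was 1.16. For the genes called lower without each array, ND arrays 6, 8 and 9 lay on the ND side in 43.9, 51.5 and 25.1%, and HFD arrays 4, 6 and 7 on the HFD side in 77.3, 75.0 and 78.8%.

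The 5 supplemented groups ate the same high-fat diet. They were labelled BC (Bacillus coagulans, 0.3% by weight), SMG (0.3% steamed grain), L_FMG and H_FMG (0.3% and 0.9% fermented mixed grain) and RMG, a code with no description in the sources used here. Comparisons with ND share its 3 arrays, so only levels are given side by side. Thbs2 averaged 6.41 in ND and 7.36 in HFD, and 7.17, 7.61, 7.32, 7.19 and 7.24 in BC, RMG, SMG, L_FMG and H_FMG, with all 15 supplemented arrays above all 3 ND arrays. Vwf averaged 7.02 in ND and 6.31 in HFD, and 6.7, 6.3, 6.48, 6.49 and 6.66 in the same order, with all 15 below all ND arrays. Trem2 averaged 6.78 in ND and 8.86 in HFD, and 8.38, 9.23, 8.61, 8.21 and 7.81, with 10 of 15 above all ND arrays. Pck1 averaged 10.79 in ND and 9.72 in HFD, and 9.92, 9.11, 10.0, 10.61 and 10.73, with 9 of 15 below all ND arrays. Thbs2 and Vwf were thus outside the ND range on every array with high-fat feeding, while Trem2 and Pck1 overlapped with ND on some.

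**Figure D5:**
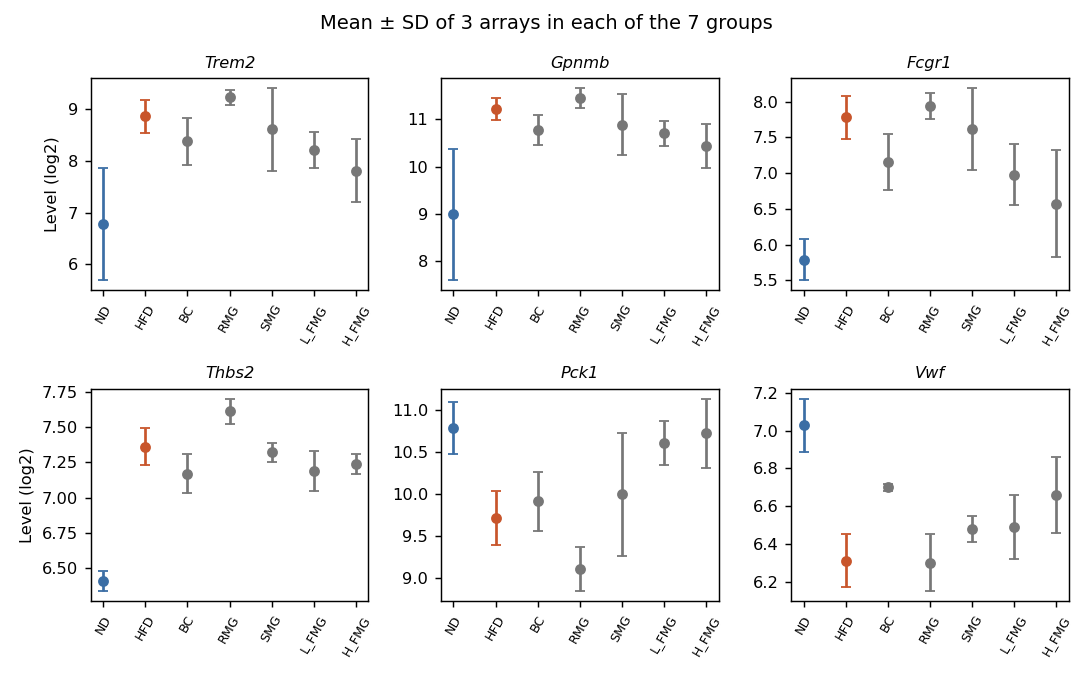
Mean and SD of 3 arrays in log2 (vertical axis, own scale for each gene) in the 7 groups for 6 genes, with ND in blue, HFD in orange and the supplemented groups in grey. Thbs2 lies above its ND mean of 6.41 and Vwf below its ND mean of 7.02 in all high-fat groups, and Trem2 in H_FMG, at 7.81, lies between ND and HFD.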

How the data were processed

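Total RNA from epididymal fat was hybridised to whole-transcript arrays as biotin-labelled sense cDNA, per the labels' protocols. The authors deposited 1 table of values for 21 arrays, which ran from 0.844 to 12.71 and were read as log2; the labels do not give the log base or how the authors normalized them. Of 24292 probes 24291 had a value on every array, of which 17067 carried a single gene symbol, 1139 several and 6085 none. Each of 16248 genes was represented by its brightest single-symbol probe, by the mean over the 21 arrays. Arrays give no read depth, and 3 arrays a group limit the precision.

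Differences were fitted with limma 3.58.1 in R 4.3.3 (lmFit, then eBayes with an intensity trend), 1 coefficient for each of 7 groups and no covariate, and p-values were adjusted over all genes by Benjamini-Hochberg. On simulated data of 16248 genes for HFD against ND, the fit recovered 36% of 50 genes changed by 0.5 log2 units. It recovered 94% of those changed by 1, 98% at 1.5 and 100% at 2, and called 9 unchanged genes. The simulated noise was independent between arrays and genes, with 1 spread a gene in all groups. On the real arrays the SD of Trem2 was 1.09 in ND and 0.32 in HFD, so these shares need not hold there. The fit was repeated with quantile normalization, median centring, dim genes left out, the 6 arrays alone, no intensity trend, array weights, the mean of a gene's probes, every probe, and each array left out. The arrays to compare and the gene lists were chosen with earlier results of these data known, so lists were given counts and medians but no test. Some lists share members, so their counts are not separate sets of genes. Named genes were taken from the 15 largest rises and 15 largest falls among called genes without overlap, predicted models left out, and from members of the lists; others are said to be chosen after their values were seen. Promoter sequences were RefSeq's, build GRCm38.p6, with 15134 promoters matched to 12382 genes.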

Additional observations from a re-analysis of the deposited data

How the results depend on the processing

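Against 1403 genes called (1063 higher, 340 lower), the HFD and ND arrays alone gave 774 (653 higher, 121 lower), and array weights gave 2432, with 983 lower. Median centring gave 1603 higher and 148 lower. With 1 array left out the count ran from 368 to 1457, from 320 to 1072 for genes called higher and from 48 to 506 for genes called lower, and that of genes without overlap from 5761 to 7238, against 4670 with 3 arrays a side, since fewer arrays overlap less often. The other 6 settings kept the count of called genes within 1.5 times. Of 155 genes named in the text 138 were called, 81 of these stayed called in every setting, and none of the 138 changed direction. Most calls were lost without HFD array 6 (55), without ND array 8 (28) and with the 6 arrays alone (22), where fewer arrays estimate the spread; quantile normalization lost 9 and median centring 7. Nfatc1, which was not called, was at -0.05 after quantile normalization in place of 0.101. Genes with several probes are uncertain: in 20 of the 64 called ones the probes differed in sign. No paired analysis was possible because ND and HFD share only 1 array number. The cause of these changes was not tested.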
